A study of Mus musculus with 33 samples.

Results

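Cyp2d22 and a small set of drug metabolism enzymes were described in the hippocampus of Tg2576 mice given the liver X receptor (LXR) agonist TO901317. The set was a list of 8 genes, Cyp2d22, Por, Gstm1, Gstm5, Gstt1, Aldh1a1, Nqo1 and Ephx1, and each probe set annotated to a single one of them was used. It gave 7 genes with 11 probe sets, of 18193 genes with 34945 single-gene probe sets on the array. No probe set was named as Por in the annotation used, so Por was not analysed here. Cyp2d22 was put in the set because its signal was higher after TO901317. Its comparisons that involve treated animals are therefore given as values without a test.

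The 33 arrays came from 33 male mice in 3 groups of 11, with 1 array per animal. One group was wild-type littermates dosed with vehicle. Another was heterozygous Tg2576 mice dosed with vehicle, and the last was heterozygous Tg2576 mice dosed with TO901317 at 50 mg/kg per day by oral gavage. Tg2576 mice carry human APP with the Swedish Alzheimer's mutation, driven by the prion promoter. All animals were 20 weeks old on a mixed SJL × C57BL/6J background and were saline perfused 1 hour after the last dose. The labels state the length of dosing as 7 days in the design text but 5 days in the protocol. Values with TO901317 come only from transgenic mice, since no treated wild type entered the fit.

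Cytochromes P450 of the CYP2D family oxidise many drugs that act on the brain, and Cyp2d22 is often regarded as the mouse counterpart of human CYP2D6. P450 enzymes take their electrons from the reductase encoded by Por. Their products, and other reactive molecules, are then handled by glutathione transferases such as Gstm1, Gstm5 and Gstt1, by the microsomal epoxide hydrolase Ephx1, by the quinone reductase Nqo1 and by aldehyde dehydrogenases such as Aldh1a1. These enzymes are best known from the liver, and in brain they are also found in glia, in vessel walls and at the barriers between blood and brain.

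Of the hippocampal neuron markers, 10 of 10 genes passed the filter on low signal, with Camk2a at a mean signal of 2921. Markers of hepatocytes, the main site of P450 expression, were near background, with 0 of 5 past the filter and a summed signal between 14.3 and 63.7 in the 33 animals. Of 12 listed LXR targets, 4 rose in treated animals. Abca1, the LXR-controlled cholesterol exporter, rose from a mean signal of 310.7 ± 23.97 (SD, n = 11) to 487.6 ± 89.18 (SD, n = 11), a log2 difference of 0.61 (SE 0.08, limma adjusted p = 0.000164). Srebf1, the lipogenic transcription factor that LXR switches on, rose from 181.0 ± 21.97 to 290.5 ± 46.24 (log2 difference 0.63, SE 0.09, adjusted p = 0.000164). Array medians lay between 19.4 and 28.9 signal units.

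Cyp2d22 was the only member of its family above the filter. The 7 other Cyp2d genes named on the array, Cyp2d9, Cyp2d10, Cyp2d12, Cyp2d13, Cyp2d26, Cyp2d34 and Cyp2d40, had probe set means between 1.46 and 11.6, against a filter limit of 13.9. Cyp2d22 was read by a pair of probe sets. The mean of 1419040_at over all animals was 163.7 and that of 1419039_at was 67.7. Levels of different probe sets are not comparable with each other, so every comparison here was made within a probe set.

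For Cyp2d22 probe set 1419040_at, the signal in wild-type vehicle animals ran from 116.3 through a median of 162.7 to 210.7. In Tg2576 vehicle animals it ran from 90.3 through 137.4 to 161.0. In treated Tg2576 animals it ran from 163.1 through 188.1 to 246.1. The lowest treated animal therefore lay 2.05 signal units above the highest vehicle-dosed transgenic animal, and these groups did not overlap. Group means were 164.0 ± 25.63 in wild type, 133.2 ± 17.72 in Tg2576 with vehicle and 193.9 ± 28.36 with TO901317 (SD, n = 11 each). The treated mean was 0.49 higher than that of vehicle-dosed Tg2576 mice on the log2 scale, or 1.41-fold on the scale of log2(signal + 16), and 0.22 higher than the wild-type mean. All 11 treated animals were above the wild-type median, but only 3 were above every wild-type animal. Both treated comparisons are descriptions, since the gene was chosen for this pattern.

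**Figure D1:**
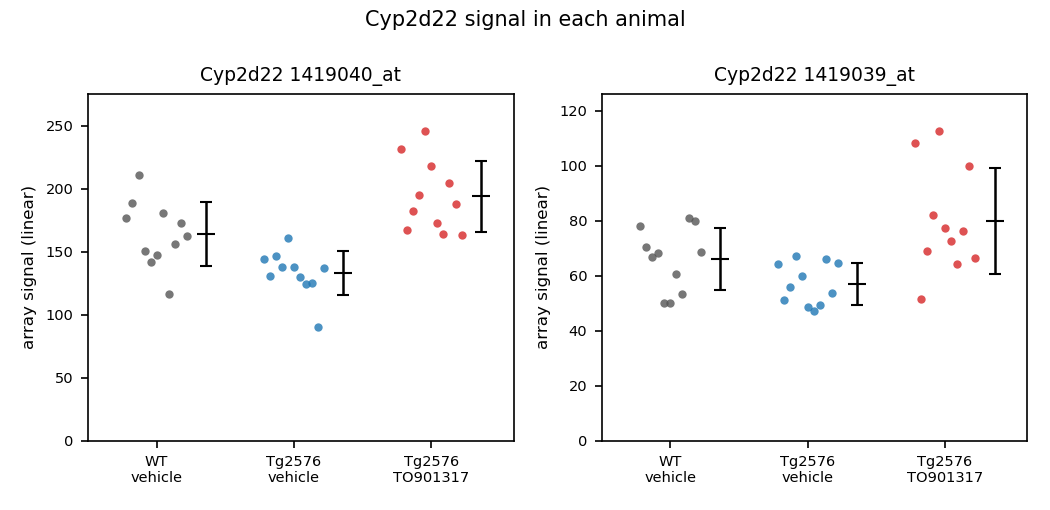
Signal (deposited MAS5 units, linear axis from 0) of both Cyp2d22 probe sets in each of the 33 animals, by group, 1 point per animal, with the group mean and its SD as a black dash and error bar. For 1419040_at the lowest treated Tg2576 animal (163.1) is above the highest vehicle-dosed one (161.0), while for 1419039_at the same groups overlap.

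Absence of overlap was rare on the array. Between treated and vehicle-dosed Tg2576 mice, 2 of 27022 tested probe sets (0.0074%) were higher without overlap, and nothing can be read from this share for Cyp2d22 since the gene was chosen on this contrast. The other probe set belonged to Srebf1, whose lowest treated animal was 1.09 times the highest vehicle animal. For Cyp2d22 that ratio was 1.01. Just outside lay Dst, a cytoskeletal linker, at 0.989, then Abcg1 at 0.976 and Abca1 at 0.972, both sterol exporters. By the size of its log2 difference Cyp2d22 held rank 30 of 12765 genes.

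The dimmer probe set, 1419039_at, had the groups in the same order. Its signal ran from 50.1 through a median of 68.3 to 81.1 in wild type, from 47.1 through 55.9 to 67.3 in Tg2576 with vehicle, and from 51.5 through 76.1 to 112.8 with TO901317. Treated and vehicle-dosed transgenic animals overlapped here: 8 of 11 treated animals were above every vehicle animal and 10 of 11 were above the vehicle median. The mean log2 difference was 0.38 against vehicle-dosed Tg2576 and 0.21 against wild type, again as a description. Treated replicate 5 was the highest treated animal for both Cyp2d22 probe sets, and without it the difference at 1419040_at was 0.46 in place of 0.49.

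The comparison of vehicle-dosed Tg2576 with wild type was not the one on which Cyp2d22 was chosen, and its test is given. It shares the vehicle-dosed Tg2576 animals with that choice, however. A gene chosen for a rise over those animals tends to be low in them, so this test is not independent of the choice. The mean of 1419040_at was lower in Tg2576 by 0.27 (log2 difference -0.27, SE 0.08, 95% interval -0.43 to -0.10). All 11 transgenic animals were below the wild-type median, and 6 wild-type animals were above every transgenic one, although the groups overlapped. The unadjusted p was 0.0022, and the adjusted p over the whole array, 0.197 by limma, missed the limit of 0.05. Over the alternative settings the smallest adjusted p for this probe set was 0.096. The dimmer probe set differed by -0.16 (SE 0.09, interval -0.35 to 0.03, limma adjusted p = 0.594), with all 11 Tg2576 animals below the wild-type median there as well.

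Cell type markers also differed in this comparison. Of 12 astrocyte markers, 7 were lower and 1 was higher at an unadjusted p under 0.05, against 11.6% of all genes in either direction, and their median log2 difference was -0.17. One of them, the bicarbonate transporter gene Slc4a4, fell from 725.7 ± 44.57 to 600.8 ± 40.42 (SD, n = 11), a log2 difference of -0.27 (limma adjusted p = 0.00279). From animal to animal Cyp2d22 (1419040_at) had r = 0.43 with the astrocyte list (rho = 0.37), which did not pass by permutation over 33 animals (adjusted p = 0.0761 and 0.164). Of 12 meningeal fibroblast markers, 9 were higher at an unadjusted p under 0.05 and 0 were called by limma, with a median of 0.45. The part of astrocyte or meningeal RNA in the Cyp2d22 values was not tested.

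None of the 11 probe sets passed in this genotype comparison (0 of 11, against 43 of 27022 probe sets, 0.159%, over the array). At an unadjusted p under 0.05, 3 of 11 passed by limma and 4 of 11 by a permutation test of the group labels, against 9.7% of all probe sets by limma. The 3 by limma were Cyp2d22 1419040_at and the Gstm1 probe sets 1416416_x_at and 1425627_x_at. They are not independent genes, and the choice of Cyp2d22 used its vehicle-dosed Tg2576 values. The median log2 difference over the 11 was -0.11, against 0.00031 over all probe sets tested. In treated against vehicle-dosed Tg2576 mice, 0 of the 9 probe sets other than those of Cyp2d22 passed (array 38 of 27022, 0.141%), with 1 at an unadjusted p under 0.05 by limma and 1 by permutation (array 10.5% by limma). In treated Tg2576 against wild type, 0 of 9 passed (array 39 of 27022, 0.144%), with 0 at an unadjusted p under 0.05 by either test (array 8.2% by limma). Each group takes part in a pair of these comparisons, so they are not independent of each other.

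**Figure D2:**
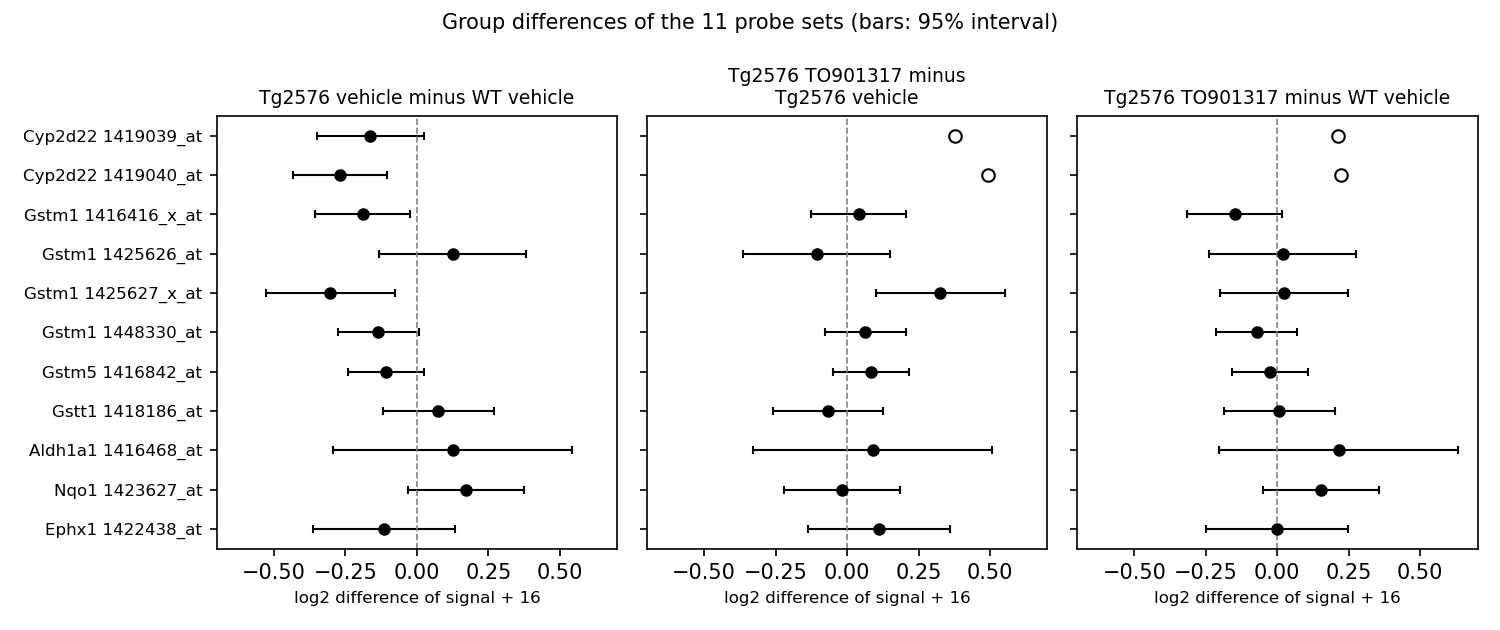
Log2 difference of each probe set of the 7 genes in the 3 comparisons, on the log2(signal + 16) scale, with the 95% interval from limma where a test applies. Cyp2d22 is drawn as open circles without an interval in the treated comparisons, because it was chosen on them, and the intervals of all 9 other probe sets in treated against wild type include 0.

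The mu-class glutathione transferases Gstm1 and Gstm5, which attach glutathione to electrophiles, were correlated from animal to animal. Both genes lie on chromosome 3. Promoter windows from 250 bases before to 50 bases after an annotated start, taken from RefSeq on GRCm38.p6, are shown for this pair because of that correlation. They were searched on both strands for the core of the antioxidant response element, TGACNNNGC, for the core of the xenobiotic response element, GCGTG, and for AGGTCA, the core of a nuclear receptor binding site. Capitals mark the matches.
Gstm1 (second of its windows, chr3:108017769-108018068, minus strand): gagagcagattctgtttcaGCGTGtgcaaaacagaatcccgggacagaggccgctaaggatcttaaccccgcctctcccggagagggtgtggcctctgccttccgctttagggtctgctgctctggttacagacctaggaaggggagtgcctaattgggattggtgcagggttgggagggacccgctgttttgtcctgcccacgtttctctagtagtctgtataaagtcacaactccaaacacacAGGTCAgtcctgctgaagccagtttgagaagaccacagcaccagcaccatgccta
Gstm5 (chr3:107895604-107895903, plus strand): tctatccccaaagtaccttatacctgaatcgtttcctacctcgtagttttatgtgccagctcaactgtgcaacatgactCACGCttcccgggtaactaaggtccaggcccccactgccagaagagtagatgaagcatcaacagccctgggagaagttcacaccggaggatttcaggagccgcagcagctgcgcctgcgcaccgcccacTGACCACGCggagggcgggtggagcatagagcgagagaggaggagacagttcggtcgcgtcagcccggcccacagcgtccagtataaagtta
The Gstm1 window held GCGTG starting 231 bases before the start site and AGGTCA starting 5 bases before it. The Gstm5 window held TGACCACGC starting 42 bases before the start, and the last letters of that match overlap a GCGTG match on the opposite strand. It held a further GCGTG match, read as CACGC, 171 bases before the start. Such matches were common. Of 32851 promoter windows of the same length, 12.4% held TGACNNNGC, 32.4% held GCGTG and 16.3% held AGGTCA, and a match by itself is only a run of letters. The first Gstm1 window held 1 GCGTG match and no AGGTCA, and the Por window held 3 GCGTG matches. The windows of Gstt1, Aldh1a1, Nqo1 and Ephx1 held none of the searched letters.

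Gstm5 (1416842_at) had a signal from 1446 through a median of 1735 to 2077 in wild type, from 1334 through 1604 to 1914 in Tg2576 with vehicle, and from 1468 through 1724 to 2016 with TO901317. The groups overlapped throughout. The log2 difference was -0.11 for genotype (SE 0.07, interval -0.24 to 0.02) and 0.08 for TO901317 in Tg2576 (SE 0.07, interval -0.05 to 0.22), with limma adjusted p = 0.624 and 0.706. Treated Tg2576 differed from wild type by -0.03 (interval -0.16 to 0.11).

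Gstm1 was read by 4 probe sets that did not vary alike. The brightest, 1416416_x_at, ran from 805.9 through 1045 to 1180.0 in wild type, from 697.7 through 932.4 to 1051 in Tg2576 with vehicle and from 741.1 through 884.0 to 1280.0 with TO901317. Its genotype difference was -0.19 (SE 0.08, interval -0.36 to -0.02, limma adjusted p = 0.43), and 10 of 11 transgenic animals lay at or below the wild-type median. TO901317 moved the mean by 0.04 (interval -0.12 to 0.21), and without treated replicate 5, the highest at 1280.0, that value was -0.0085. The second bright probe set, 1448330_at, had means of 925.9 ± 122.4, 838.7 ± 79.77 and 880.4 ± 120.0 (SD, n = 11) in the same order of groups, with differences of -0.13 for genotype and 0.06 for the drug.

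The remaining Gstm1 probe sets were dim. Probe set 1425627_x_at ran from 46.8 through 75.0 to 123.8 in wild type, from 37.6 through 56.9 to 77.8 in Tg2576 with vehicle, and from 54.5 through 77.03 to 104.5 with TO901317. It had the largest tested differences of the set, -0.30 for genotype (SE 0.11, interval -0.53 to -0.08, adjusted p = 0.325 by limma) and 0.33 for TO901317 (SE 0.11, interval 0.10 to 0.55, adjusted p = 0.253 by limma). 10 of 11 treated animals were above the vehicle median, and 5 were above every vehicle animal. Over the alternatives its smallest adjusted p for the drug was 0.188. The fourth, 1425626_at, had means of 28.1, 31.2 and 28.5, and its differences ran the other way, 0.12 and -0.11. Probe sets whose names end in _x_at hold probes that can also pair with related transcripts, and mu-class genes are close in sequence, so the 1425627_x_at and 1416416_x_at values are uncertain as measures of Gstm1 alone.

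Gstt1 (1418186_at), a theta-class glutathione transferase, showed no separation. Its signal ran from 53.4 through 74.8 to 98.7 in wild type, from 44.1 through 78.8 to 106.2 in Tg2576 with vehicle, and from 58.9 through 72.3 to 89.7 with TO901317. The drug difference was -0.07 (SE 0.10, interval -0.26 to 0.13) and that of genotype was 0.07 (interval -0.12 to 0.27).

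**Figure D3:**
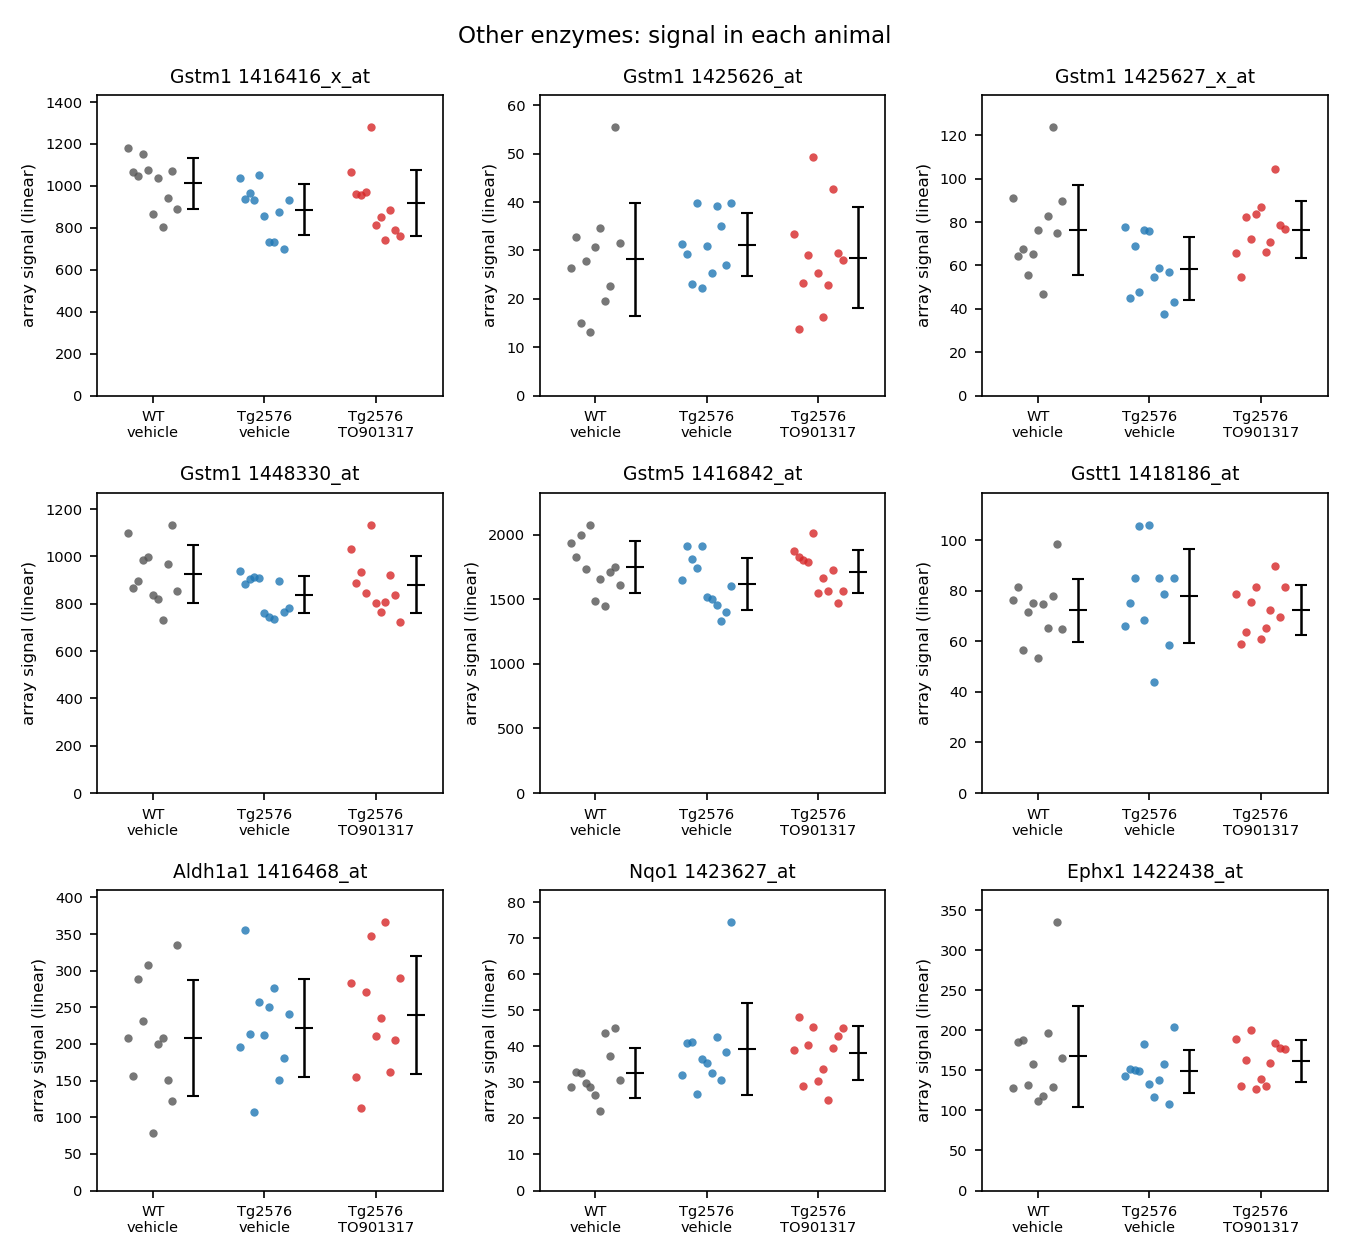
Signal (deposited MAS5 units, linear axes from 0) of the 9 probe sets of Gstm1, Gstm5, Gstt1, Aldh1a1, Nqo1 and Ephx1 in each animal, by group, 1 point per animal, with the group mean and its SD as a black dash and error bar. The 3 groups overlap for each probe set, and single high animals stand out for Nqo1 (74.4, Tg2576 vehicle) and Ephx1 (334.8, wild type).

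Aldh1a1 (1416468_at), which oxidises retinaldehyde to retinoic acid and clears other aldehydes, varied most among animals on the log2 scale. It ran from 79.1 through 207.7 to 335.0 in wild type, from 107.0 through 213.8 to 356.0 in Tg2576 with vehicle and from 112.5 through 235.3 to 366.2 with TO901317. Its drug difference was 0.09 with an interval of -0.33 to 0.51 (SE 0.21, limma adjusted p = 0.922) and the widest interval of the set. Without Tg2576 vehicle replicate 4, the lowest of its group, the difference was -0.00041. In brain Aldh1a1 is also a gene of midbrain dopamine neurons. Of 5 listed dopamine neuron genes, Th and Slc6a3 were below the filter. The other 3, Slc18a2, Ddc and Nr4a2, were above it, with Nr4a2 the brightest at a mean signal of 377.2.

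Nqo1 (1423627_at), which reduces quinones and is a classical NRF2 target, was dim. It ran from 21.9 through 30.6 to 45.0 in wild type, from 26.6 through 36.6 to 74.4 in Tg2576 with vehicle and from 25.04 through 39.5 to 48.3 with TO901317. The high value of 74.4 was Tg2576 vehicle replicate 11, and the next animal of that group stood at 42.5. Nqo1 was higher in Tg2576 by 0.17 (SE 0.10, interval -0.03 to 0.37, limma adjusted p = 0.603), with 10 of 11 transgenic animals above the wild-type median. TO901317 moved it by -0.02 (interval -0.22 to 0.18), and by 0.06 without replicate 11.

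Ephx1 (1422438_at), which hydrolyses epoxides left by P450 enzymes, ran from 111.8 through 157.9 to 334.8 in wild type, from 108.4 through 148.9 to 204.1 in Tg2576 with vehicle and from 127.0 through 163.1 to 200.8 with TO901317. Wild-type replicate 10 held the value of 334.8, and the next wild-type animal stood at 196.1. The drug difference was 0.11 (SE 0.12, interval -0.14 to 0.36) and the genotype difference -0.11 (interval -0.36 to 0.13), with limma adjusted p = 0.801 and 0.826. Treated Tg2576 and wild type differed by -0.0020 with all animals and by 0.097 without wild-type replicate 10.

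How the genes varied from animal to animal was examined after subtracting each group's mean, so that mean differences between groups did not enter. Any unequal response to the drug among treated animals stays in these deviations. The numbers that the labels give to the animals went with the signal of many probe sets, a split chosen after seeing the data. Gstm5 ran from 1735 to 2077 in wild-type animals numbered 1 to 5 and from 1446 to 1749 in those numbered 6 to 11. In Tg2576 with vehicle it ran from 1647 to 1914 and from 1334 to 1604, and with TO901317 from 1791 to 2016 and from 1468 to 1724. For Gstm5 the lower-numbered animals were thus the brighter ones, without overlap in both transgenic groups. Other probe sets of the set varied in this. Their log2 difference of numbers 1 to 5 minus 6 to 11 ran from -0.12 for Gstm1 1425626_at to 0.30 for Gstm1 1416416_x_at. Apart from the set's own probe sets, 4655 of 27011 (17.2%) differed between the number ranges at a limma adjusted p under 0.05. The labels do not say what the numbers mark, and each range holds all 3 groups. Each relation is therefore given first with group means subtracted and then with the mean of each group and number range subtracted, permuted within both.

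Over the 33 animals, 28 pairs of probe sets were correlated, 21 between genes by their brightest probe sets and 7 within a gene, with 100000 permutations within groups. Of the pairs between genes, 4 passed an adjusted p of 0.05 for Pearson's r and 3 for Spearman's rho as well. Gstm1 (1416416_x_at) and Gstm5 had r = 0.80 (rho = 0.82, permutation p = 1e-05 for both, the smallest possible, adjusted p = 0.00014). Without the 2 animals farthest from the median r was 0.77, and within the groups it was 0.79 in wild type, 0.72 in Tg2576 with vehicle and 0.94 with TO901317. With the number ranges taken out r was 0.47 (rho = 0.47, permutation adjusted p = 0.0398 and 0.0612), so that rho no longer passed, and r was 0.35 without the 2 farthest animals. Within numbers 1 to 5 (15 animals) r was 0.24, and within 6 to 11 (18 animals) it was 0.62. Since 1416416_x_at may also pair with related transcripts, the other bright Gstm1 probe set is given as a description: 1448330_at had r = 0.66 with Gstm5 and 0.52 with Cyp2d22 before the ranges were taken out.

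Cyp2d22 (1419040_at) and Gstm1 had r = 0.68 (rho = 0.59, permutation p = 2e-05 and 0.00055, adjusted p = 0.000187 and 0.00513), and r = 0.59 without the 2 farthest animals. Within groups it was 0.56, 0.80 and 0.70. With the number ranges taken out it was 0.64 (rho = 0.61, permutation adjusted p = 0.00378 and 0.00728), with 0.50 in numbers 1 to 5 and 0.74 in 6 to 11. With Gstm5, Cyp2d22 had r = 0.57 (rho = 0.52, permutation p = 0.00085 and 0.00271, adjusted p = 0.00476 and 0.0152), and r = 0.46 without the 2 farthest. With the ranges taken out this pair did not pass (r = 0.44, rho = 0.45, permutation adjusted p = 0.0661 and 0.0714), and r was 0.29 in numbers 1 to 5 and 0.55 in 6 to 11. The dimmer Cyp2d22 probe set, 1419039_at, had r = 0.21 with Gstm5 and 0.50 with Gstm1 1416416_x_at, given as descriptions before the ranges were taken out. With Gstt1, Aldh1a1, Nqo1 and Ephx1 the r of Cyp2d22 ran from -0.04 to 0.24, and none of these passed. The only other pair to pass was Nqo1 with Ephx1, at r = 0.47 (permutation p = 0.00436, adjusted p = 0.0203), whose rho of 0.42 did not (adjusted p = 0.0829) and whose r was 0.04 among treated animals. With the ranges taken out its r was 0.52 (permutation adjusted p = 0.0398) and its rho 0.41 (adjusted p = 0.118), with r = -0.07 in numbers 1 to 5 and 0.67 in 6 to 11.

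Within genes, the Cyp2d22 probe sets followed each other at r = 0.57 (rho = 0.59, permutation p = 0.00077 and 0.00087, adjusted p = 0.00476 and 0.00609), and at r = 0.50 without the 2 farthest animals. With the number ranges taken out r was 0.56 (permutation adjusted p = 0.0253). The bright Gstm1 probe sets 1416416_x_at and 1448330_at did so at r = 0.82 (rho = 0.84, permutation p = 1e-05, adjusted p = 0.00014), and at 0.78 without the 2 farthest, and at r = 0.68 with the ranges taken out (permutation adjusted p = 0.00378). The dim 1425627_x_at had r between -0.07 and 0.11 with the other Gstm1 probe sets, none of which passed. The dim 1425626_at had r = 0.20 with 1416416_x_at and 0.30 with 1448330_at, which did not pass, and 0.55 and 0.53 with the ranges taken out, which did (permutation adjusted p = 0.0253 and 0.0398).

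**Figure D4:**
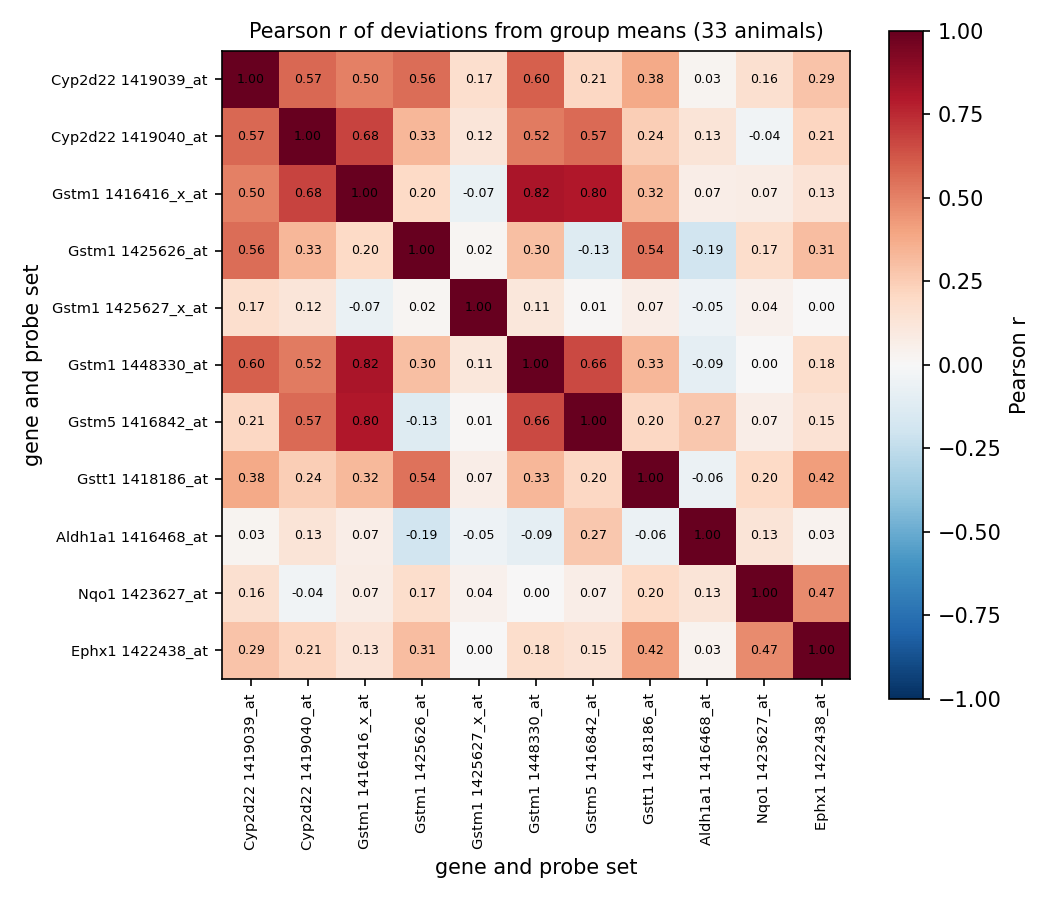
Pearson r between the 11 probe sets, on deviations from group means over the 33 animals, with genes and probe sets on both axes and r as colour and number. Gstm1 1416416_x_at with Gstm5 has r = 0.80 and with Cyp2d22 1419040_at r = 0.68, while Gstm1 1425627_x_at is pale along its whole row. The number ranges are not taken out here.

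The members were also set against the mean deviation of 8 lists of cell type markers, 56 relations in all, of which 11 passed for r and 7 for rho as well. With the number ranges taken out, 5 passed for r, all of them among the 11, and these 5 passed for rho as well. The 5 were Ephx1 with the choroid plexus, endothelial and meningeal fibroblast lists, Nqo1 with the endothelial list and Gstt1 with the meningeal fibroblast list. Gstt1 with the endothelial list passed for rho only. Gstm5 varied with the oligodendrocyte genes at r = 0.63 (rho = 0.60, adjusted p = 0.0056 and 0.0157) and Gstm1 at r = 0.57 (rho = 0.56, adjusted p = 0.00595 and 0.0161). Cyp2d22 had r = 0.58 with that list (adjusted p = 0.00595) and rho = 0.44 (adjusted p = 0.0548), and r = 0.42 without the 2 farthest animals. None of these 3 passed with the number ranges taken out, where r was 0.42 for Gstm5, 0.28 for Gstm1 and 0.48 for Cyp2d22 (permutation adjusted p = 0.151, 0.341 and 0.057). Of the 9 oligodendrocyte markers measured, 0 of 9 passed in any of the 3 comparisons by limma, with 1 higher at an unadjusted p under 0.05 after TO901317 (all genes 11.4%), 3 lower in Tg2576 with vehicle than in wild type (all genes 11.6%) and 2 lower in treated Tg2576 than in wild type (all genes 9.08%). Their summed signal ran from 8709 to 13260.0 in wild type, from 6765 to 12310.0 in Tg2576 with vehicle and from 8865 to 12380.0 with TO901317. The part of oligodendrocyte RNA in the Cyp2d22 and Gstm values was not tested. In whole hippocampus, fewer cells of a type and less RNA per cell cannot be told apart.

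Ephx1 and Nqo1 were correlated with genes of the barriers. Ephx1 had r = 0.76 with the choroid plexus markers (rho = 0.55, permutation p = 1e-05 and 0.00144, adjusted p = 0.00056 and 0.0161). Its r was 0.67 without the 2 farthest animals and 0.65 without wild-type replicate 10, the animal with the highest Ephx1 and also with the highest choroid plexus sum. It was 0.85 with the number ranges taken out (permutation adjusted p = 0.00056). That sum spanned 348.4 to 10090.0 in wild type, 202.4 to 7237 in Tg2576 with vehicle and 931.3 to 8682 with TO901317, with 10 of 10 markers past the filter and Ttr, the thyroxine carrier of the choroid plexus, the brightest. Tg2576 vehicle replicate 11, the animal with the highest Nqo1, had the highest choroid plexus sum of its group. Nqo1 had r = 0.56 with this list (adjusted p = 0.00595, rho = 0.45, adjusted p = 0.0548), and r = 0.54 with the ranges taken out, which did not pass (permutation adjusted p = 0.057).

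With the endothelial markers, r was 0.64 for Ephx1, 0.56 for Nqo1, 0.46 for Gstt1 and 0.49 for Cyp2d22, with adjusted p = 0.0056, 0.00595, 0.0348 and 0.0348 by permutation. The rho of the first 3 passed as well, while that of Cyp2d22, 0.48, did not (adjusted p = 0.0505). With the number ranges taken out, r was 0.65 for Ephx1 and 0.57 for Nqo1, which passed, and 0.48 for Gstt1 and 0.52 for Cyp2d22, which did not (permutation adjusted p = 0.0628 and 0.0612). The rho of Gstt1, 0.56, still passed (permutation adjusted p = 0.0239). Gstt1 had r = 0.58 with the meningeal fibroblast genes (rho = 0.61, adjusted p = 0.00595 and 0.0157), and r = 0.67 with the ranges taken out (permutation adjusted p = 0.00056). The summed endothelial signal ran from 1281 to 2306 in wild type, from 1209 to 1666 in Tg2576 with vehicle and from 1425 to 1867 with TO901317, with 12 of 12 markers past the filter and 0 of 12 called in any comparison by limma. For TO901317, 4 of those 12 were higher at an unadjusted p under 0.05 (all genes 11.4%), and in Tg2576 with vehicle 3 were lower than in wild type (all genes 11.6%). The part of vessel, choroid plexus or meningeal RNA in these values was not tested.

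Across all 12758 other genes, those whose deviations were most like those of Cyp2d22 were Dbndd2 (r = 0.80), Plekhb1 (0.76), Slc44a1 (0.76), Cerox1 (0.74), Neat1 (0.72) and Mal (0.71), over 33 animals that share their arrays. The 99th percentile of r over these genes was 0.55. The r of these 6 genes ran from 0.67 for Mal to 0.77 for Dbndd2 once the number ranges were taken out. Slc44a1 encodes a choline transporter-like protein, Mal a myelin membrane protein, and Cerox1 and Neat1 are long noncoding RNAs. None of the 6 passed in any of the 3 comparisons by limma, with adjusted p of 0.234 or more. Dbndd2 had mean signals of 792.0, 718.9 and 813.3 in wild type, Tg2576 with vehicle and treated Tg2576.

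The rest of the pathway was read from 11 lists of 230 genes, of which 142 were measured above the filter, with 1 probe set per gene. For TO901317 in Tg2576 mice, 23 of 12765 genes (0.18%) passed over the whole array. Outside the LXR targets, 1 gene of these lists passed. It was Slco1a4, an organic anion transporter of the blood-brain barrier, among 16 drug transporters measured. Its signal rose from 238.5 ± 28.59 to 325.3 ± 51.23 (SD, n = 11), a log2 difference of 0.42 (SE 0.08, limma adjusted p = 0.025), and 11 of 11 treated animals were above the vehicle median. Slco1a4 passed the limit of 0.05 under 40 of 47 alternatives, among them a permutation test of the group labels whose p was unadjusted. Its adjusted p reached 0.0877 without Tg2576 vehicle replicates 3 and 4. It was also above the limit when Tg2576 vehicle replicate 3 or treated replicate 1, 5, 6, 9 or 10 was left out, at 0.0505 to 0.0565. In the same comparison the 12 endothelial markers had a median log2 difference of 0.18, with 4 higher and 0 lower at an unadjusted p under 0.05 (all genes 11.4%) and 0 called by limma. Among them Slc2a1, the glucose transporter of brain vessels, had 407.2 ± 62.29 and 554.1 ± 78.09 (SD, n = 11), a log2 difference of 0.43 (limma adjusted p = 0.0842), with 11 of 11 treated animals above the vehicle median. The part of vessel RNA in the Slco1a4 value was not tested.

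The 12 LXR targets, listed as a check of drug action, had 4 that rose, Abca1, Srebf1, Abcg1 and the desaturase gene Scd1. Their list median was 0.19 against -0.01 over all genes. The 8 lists other than the LXR targets, the drug transporters and the Cyp2d family had 0 genes past the limit by limma. In the Cyp2d family the only measured gene, Cyp2d22, was not counted here. Among 17 other cytochrome P450 genes the median was -0.00070, with 1 at an unadjusted p under 0.05 (all genes 11.4%), and the gene of smallest p was Cyp4f15, a fatty acid and eicosanoid hydroxylase, at 58.9 and 102.4 signal units (log2 difference 0.61, SE 0.20, limma adjusted p = 0.24). Among 19 glutathione transferases, Gstm1, Gstm5 and Gstt1 included, the median was 0.03 and none had an unadjusted p under 0.05 by limma (all genes 11.4%). The smallest p there belonged to Gstp1, the pi-class enzyme, with a difference of 0.08.

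**Figure D5:**
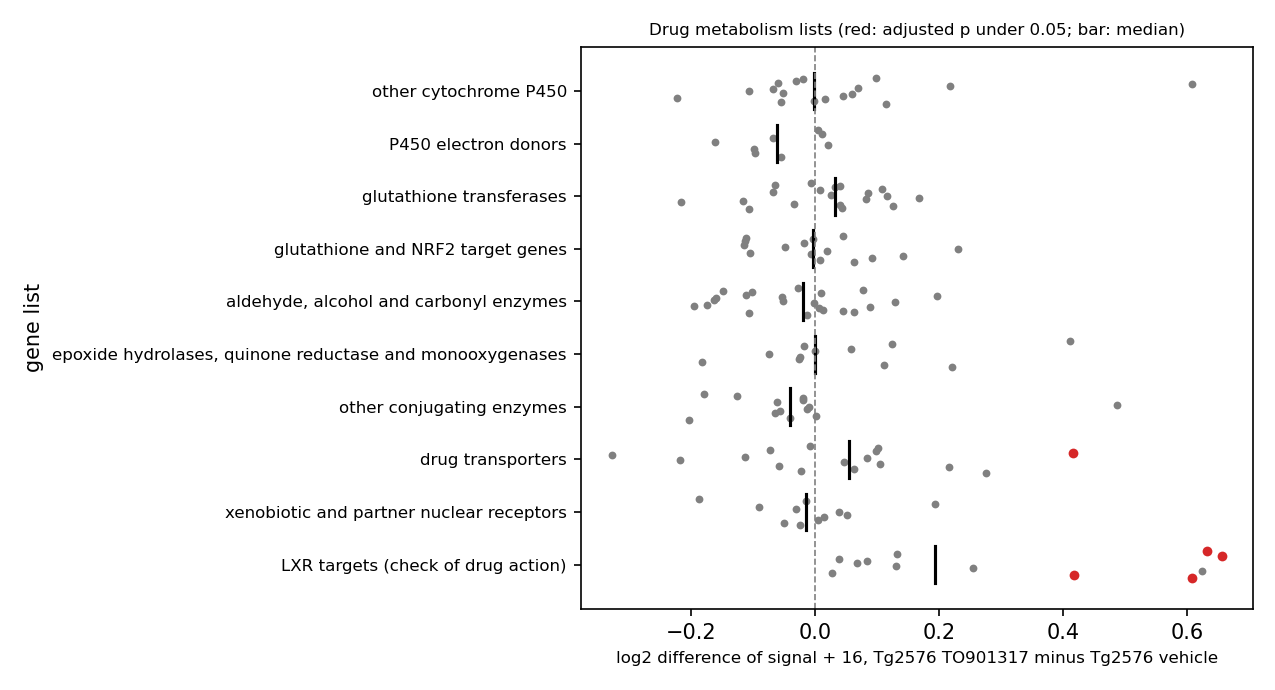
Log2 difference of each measured gene of the drug metabolism lists between treated and vehicle-dosed Tg2576 mice, 1 point per gene by its brightest probe set, with the list median as a bar and genes at an adjusted p under 0.05 in red. Red points occur among the LXR targets (4 of 12) and the drug transporters (Slco1a4, 0.42).

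The list of P450 electron donors and associated proteins (8 genes, Pgrmc1 and Pgrmc2 included, Por not among those measured) had a median of -0.06 with TO901317. Cyb5r4, a cytochrome b5 reductase, had the smallest p, at a log2 difference of -0.16 (SE 0.06, limma adjusted p = 0.299). Among 15 glutathione and NRF2 target genes the median was -0.0034, and thioredoxin, Txn1, had a difference of -0.11 with 11 of 11 treated animals below the vehicle median (limma adjusted p = 0.325). The 22 aldehyde, alcohol and carbonyl enzymes had a median of -0.02, led by Aldh6a1 at 0.20. The 11 epoxide hydrolases, quinone reductases and monooxygenases had a median of -0.00026, led by the xanthine dehydrogenase Xdh at 0.41 (21.0 and 32.8 signal units, limma adjusted p = 0.206). The 13 other conjugating enzymes had a median of -0.04, led by the sulfotransferase Sult1a1 at 0.49, and the 11 receptors a median of -0.01, led by the retinoid X receptor gene Rxra, the partner of LXR, at 0.19 (limma adjusted p = 0.314 and 0.32).

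Between vehicle-dosed Tg2576 and wild type, 26 of 12765 genes (0.204%) passed over the array and none of the pathway lists held one. The genes of smallest p were, by list, Cyp7b1, an oxysterol hydroxylase, at -0.17, Cyb5r1 at 0.22, Gstm7 at -0.19, the glutathione peroxidase Gpx1 at 0.15, the carbonyl reductase Cbr3 at -0.23 and the quinone reductase Nqo2 at -0.32. Sult2b1 stood at 0.35, the thyroid hormone transporter Slco1c1 at -0.44, the dioxin receptor gene Ahr at 0.17 and Abcg1 at -0.19. Their limma adjusted p lay between 0.132, for Slco1c1, and 0.425, for Cyb5r1. Cbr3 was below the wild-type median in 11 of 11 Tg2576 animals, with a limma adjusted p of 0.22.

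Between treated Tg2576 and wild type, 23 of 12765 genes (0.18%) passed, and of the lists only the LXR targets held any, with 4 of 12: Srebf1 at 0.69, Abca1 at 0.55, Scd1 at 0.64 and the apolipoprotein gene Apoc1 at 0.71. Elsewhere the genes of smallest p included Gsr, the glutathione reductase, at 0.35 with 11 of 11 treated animals above the wild-type median, the soluble epoxide hydrolase Ephx2 at -0.16 with 11 of 11 below it, and Aldh5a1 at -0.17 with 10 of 11 below. Cyp1b1 stood at 0.37, Pgrmc2 at 0.13, Gstz1 at 0.15, Ugt8a at -0.29, the nucleoside transporter Slc29a1 at 0.24 and Ahr at 0.14. Their limma adjusted p lay between 0.219, for Aldh5a1, and 0.617, for Gstz1.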

How the data were processed

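Total RNA of the right hippocampus was hybridised to the MOE430 2.0 array. The authors deposited 1 table of linear MAS5 signal intensity per probe set (45101 rows), per the submitters' processing notes and from the values, and each array had a 2% trimmed mean near 100.0, between 99.9686 and 99.9719. The build and the MAS5 version were not given in the sources used here. The labels do not describe cage or litter, so the spread is between animals as labelled. After 64 control probe sets were left out, log2(signal + 16) was fitted with limma 3.58.1 in R 4.3.3 (trend and robust), over 27022 probe sets left after dropping the dimmest 40% by mean signal (limit 13.9), with Benjamini-Hochberg adjustment over all of them and a limit of 0.05. MAS5 holds no counts, so the number of arrays sets the precision. Genes came from the platform annotation: 34945 probe sets had 1 gene, 932 several and 9160 none. Lists used each gene's brightest probe set. Correlations used 100000 permutations within groups, and adjustment was made over the 28 pairs and the 56 marker relations separately. The gene set and lists were chosen with earlier results of these data known. Genes named from lists were those that passed, up to 4, or else the gene of smallest p. The fit was tested on simulated data. Of simulated log2 differences of 0.25, 24.6% were recovered at an adjusted p under 0.05, against 80% of 0.5 and 97.9% of 1. In each simulated set 200 of 27022 probe sets were changed, and noise was drawn independently for each probe set. Probe sets on the real arrays vary together and the number truly changed is unknown, so these shares need not hold for the real comparisons. Not passing the limit therefore says little about the absence of a small difference. Animals numbered 1 to 5 and 6 to 11 in the labels were compared after seeing the data, with the range as a term in the fit and in the correlations. The alternatives tried were 14 settings and each animal left out in turn. Promoter windows were matched by symbol for 7 of the 8 genes in RefSeq.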

Additional observations from a re-analysis of the deposited data

How the results depend on the processing

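No probe set of the set passed in any comparison under the 13 alternative fits or with any of the 33 animals left out, Cyp2d22 not counted in the treated comparisons. The number called over the whole array did move. For genotype, 43 became 25 with only the groups compared in the fit and 66 with the Gapdh 3' to 5' ratio as a covariate. For TO901317 in Tg2576, 38 became 59 with a stricter filter, 16 with median centring 88 with the number ranges 1 to 5 and 6 to 11 as a term, and 9 without Tg2576 vehicle replicates 3 and 4. The Gapdh 3' to 5' log2 ratios of those replicates were 0.11 and 0.079, against -0.32 to -0.077 on all other arrays. For treated against wild type, 39 became 66 with the stricter filter 59 with the Gapdh covariate and 91 with the number ranges as a term. The cause of these moves was not tested. With each animal left out in turn these counts ran from 25 to 58, from 14 to 51 and from 25 to 61, the lowest without wild-type replicate 3, treated replicate 6, and wild-type replicate 1 or 2, respectively.

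The difference of Cyp2d22 (1419040_at) between treated and vehicle-dosed Tg2576 stayed between 0.39 and 0.54 over the other alternatives and between 0.44 and 0.52 with 1 animal left out. Differences near 0 changed sign: Gstt1 in treated against wild type was -0.0061 with median centring, Aldh1a1 with TO901317 was -0.0098 without Tg2576 vehicle replicates 3 and 4, and Ephx1 in treated against wild type was 0.0013 with a pseudocount of 1, 0.00073 with quantile normalization and 0.0077 with the Gapdh covariate. With 1 animal left out, Aldh1a1 ran from -0.00041 to 0.18 for the drug, Nqo1 from -0.052 to 0.056 and Gstm1 1416416_x_at from -0.0085 to 0.069. In treated against wild type, Ephx1 ran from -0.048 to 0.097, Gstt1 from -0.026 to 0.046, Gstm1 1425626_at from -0.041 to 0.092 and 1425627_x_at from -0.029 to 0.086. Replicate numbers were not used as a pairing in the main fit. At most 7 of 11 same-numbered pairs had a correlation over 0.1, and 1 of 11 animals matched its own number best in each comparison. These counts came without a test, so they do not decide whether the numbers pair animals. With the number as a replicate block, 50, 38 and 42 probe sets were called and 0 of the set. The numbers did order the animals across groups, in that many probe sets differed between numbers 1 to 5 and 6 to 11. Taken as a term after seeing the data, that range left the genotype count at 63 and called 0 of the set. The Cyp2d22 (1419040_at) genotype difference was then -0.27 (limma adjusted p = 0.113), a test that is not independent of the choice of this gene.

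Other scalings were applied to the 84 correlations after seeing the data. With quantile normalization 78 stayed on their side of an unadjusted permutation p of 0.05, with median centring 74 did, and with the number ranges taken out 76 did. The 33 arrays limit what can be seen, and dim probe sets such as Nqo1, Gstm1 1425626_at and 1425627_x_at lie closest to the pseudocount.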
